A study of Anguilla japonica with 6 samples.

Results

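Heat shock proteins, the other chaperones that fold newly made proteins, and the immunophilins that work beside them were described in the pituitary of the Japanese eel (Anguilla japonica), in females. Members were the genes whose symbol begins with hsp, hsf, dnaj, cct2 to cct8, tcp1, bag1 to bag6, fkbp, ppia to ppih, pfdn, stip1, ahsa or ptges3, leaving out fkbp5 and symbols that begin with hspa5 or hsp90b. The pattern took in 108 of 32359 genes in the table. Genes that the table lists under LOC identifiers have no symbol to match, so a chaperone listed that way is not among them.

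RNA-seq libraries came from pituitaries labelled matured (3 libraries) and pre-matured (3 libraries), all from 1 sex. The labels give no age in time, no strain, no treatment and no batch, and do not say how maturation came about. Only the sample titles tell libraries of a group apart, and whether each stands for 1 animal or a pool is not said; p-values therefore speak of the spread among these libraries. The unit of the table is FPKM, in which read numbers are divided by gene length and library depth. Read numbers rebuilt from it put the depth of the matured libraries at 16033675 to 19619964 and that of the pre-matured ones at 18206029 to 19276653 reads.

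Chaperones hold unfolded proteins and release them in cycles driven by ATP. HSP70 proteins bind short stretches of new or damaged chains, DNAJ proteins hand them clients and speed up their ATP use, and BAG and HSP110 proteins help them let go of nucleotide. HSP90 acts later, on kinases and steroid receptors among others, with co-chaperones such as HOP (stip1), p23 (ptges3) and the large immunophilins. TRiC is a closed chamber built of different subunits that folds actin and tubulin, which prefoldin can bring to it. Heat shock factors are the transcription factors that switch on many of these genes under stress. In the pituitary, secretory cells make hormones in bulk, and receptors for sex steroids and glucocorticoids pass through the HSP90 cycle.

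Of the 108 members, 98 reached 1 FPKM in 3 or more libraries and were tested; the other 10 are given at the end. Among the tested members 10 had risen and 19 had fallen in matured pituitaries (limma on log2(FPKM + 1), Benjamini-Hochberg adjusted p under 0.05 over all genes). Of the tested members 10.2% were thus higher and 19.4% lower, against 23.4% and 10% of all 17887 genes tested (33.4% in either direction). Among the 10059 tested genes that have a symbol, as all members do, the shares were 21.9% higher and 10.6% lower, or 32.5% in either direction. In FPKM as deposited, groups did not overlap for 16 members that were higher and 30 that were lower. These were 16.3% and 30.6% of those tested, where all genes gave 33.3% and 15.9% and genes with a symbol 32.3% and 17.3%. Here and below, overlap of FPKM values was judged as deposited, and rescaling can change it. The FPKM total was 500088 to 545149 in matured libraries, against 620732 to 713023 in pre-matured ones. Without matured 1, 2 or 3 the higher members numbered 6 in each case, and without matured 1 the lower ones numbered 12. The median log2 fold change of the tested members was -0.17, against 0.23 for all genes. Since these are whole pituitaries, fewer cells of a type and less RNA per cell cannot be told apart.

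**Figure D1:**
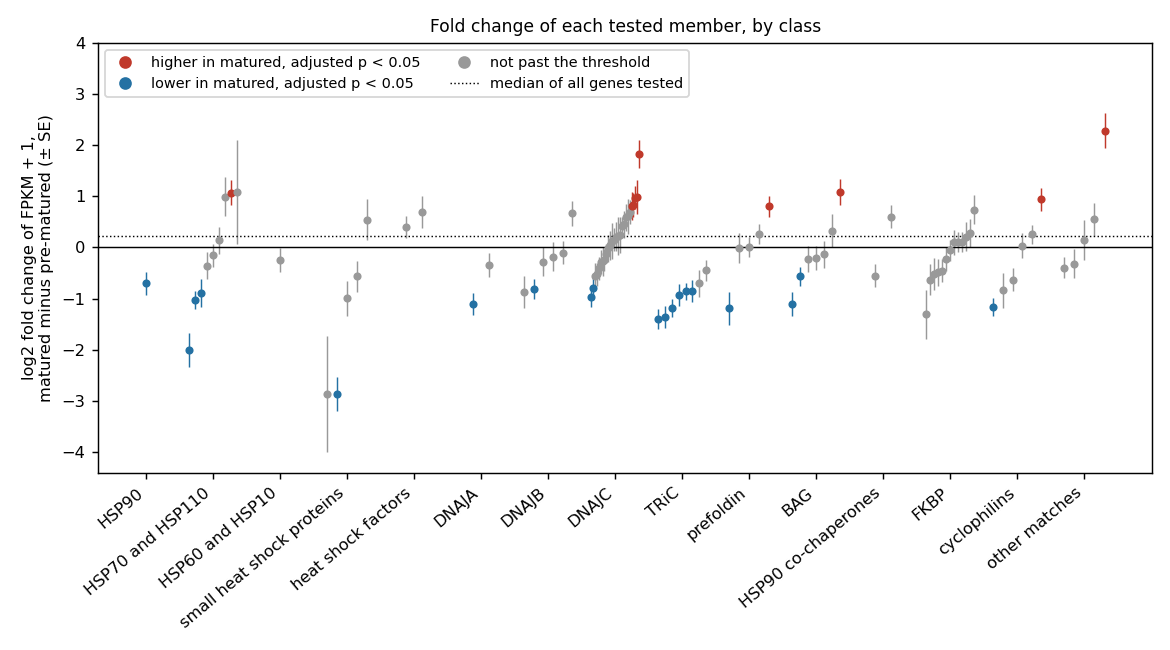
Log2 fold change of FPKM + 1 (matured minus pre-matured, vertical axis) for the 98 tested members, grouped by class along the horizontal axis; bars are standard errors, red and blue mark members past the test, and the dotted line is the median of all genes (0.23). The 8 TRiC subunits lie below 0, while the 26 DNAJC members spread to both sides.

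For members and for all genes, the balance of the directions depended on how libraries were scaled. The direction of the members past the test did not. After rescaling to TPM 17 of the 98 members were higher and 9 lower. With totals that leave out genes above 1% of a library 21 were higher and 12 lower. Of all 17887 genes tested, 5818 were higher and 978 lower under TPM, and 6204 and 1041 with those totals. Quantile normalization gave 6 higher and 29 lower, median-ratio scaling 7 higher and 31 lower, and voom on the rebuilt reads 6 higher and 30 lower. Of all genes, quantile normalization gave 2913 higher and 2896 lower, median-ratio scaling 3228 and 2727, and voom 2937 and 2549. The median of all genes was 0.54, 0.50, -0.02, 0.03 and 0.04 under these scalings. The median of the tested members minus that of all genes was -0.42, -0.38, -0.32, -0.43 and -0.49 under the same scalings. Of the 29 members past the test, 0 changed sign under any of them, and 13 passed under each. These 13 were hspa8, dnajc5b, dnajc27 and tcp11l1, which were higher, and hspa12b, hspa4a, hspb6, dnaja2a, cct4, cct6a, cct8, bag4 and ppiab, which were lower. Dnajc5b reached 1 FPKM in matured libraries only, so it entered the test through the group where it is high. For hspa12b and hspb6 all pre-matured libraries reached 1 FPKM, but of the matured ones only matured 2 did. Both thus also entered the test through the group where they are high.

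**Figure D2:**
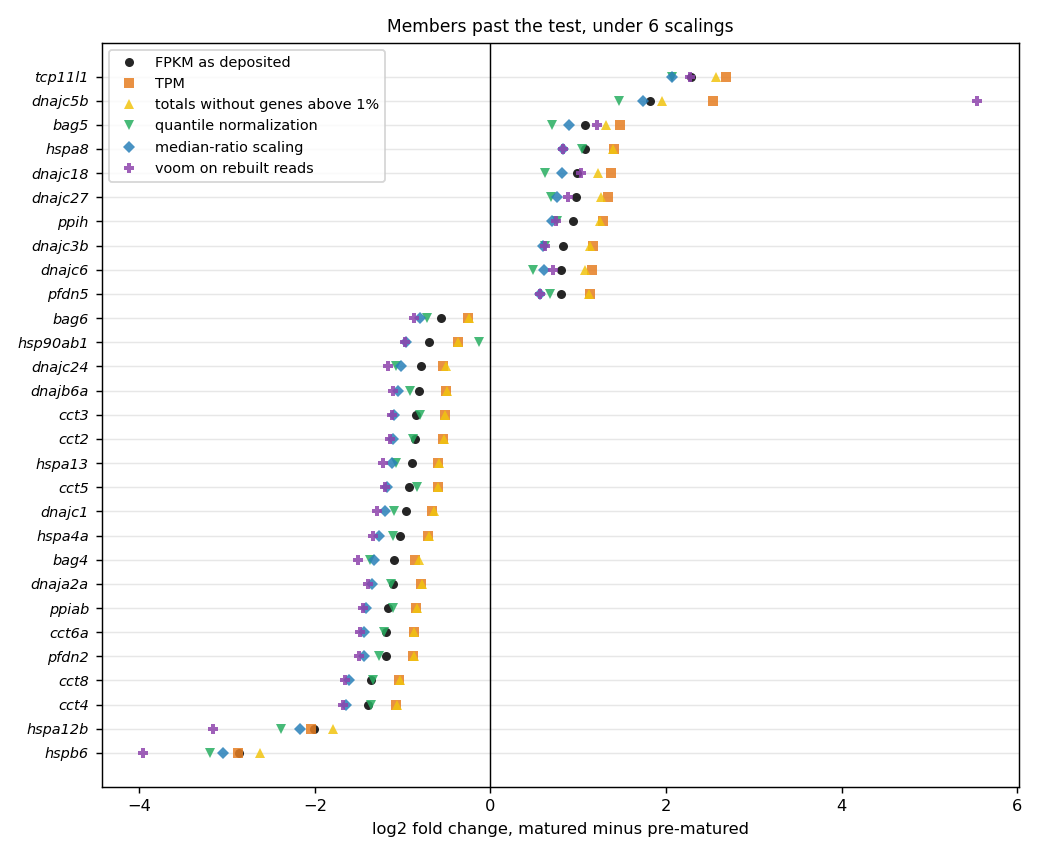
Log2 fold change (matured minus pre-matured, horizontal axis) of the 29 members past the test, 1 row per gene, under FPKM as deposited (black) and 5 other scalings (colours). The markers of each gene stay on 1 side of 0; those of hsp90ab1 reach -0.13 with quantile normalization, and dnajc5b, which is listed at 0 in pre-matured libraries, reaches 5.54 with voom.

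Of the TRiC chaperonin, 6 of 8 subunit genes fell in matured pituitaries and 0 rose, where 10% of all genes were lower. The lower ones numbered 3 under TPM. The median log2 fold change of the 8 was -0.89, and all 8 values were below 0 in each scaling and with any 1 library left out. Summed over the complex, TRiC stood at 467, 447 and 506 FPKM in the matured libraries, against 1042, 1003 and 767 FPKM in the pre-matured ones. Every library of the matured group thus lay below every pre-matured one.

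The subunit gene cct4 was at 69.5, 63.1 and 74.7 FPKM in the matured libraries, against 221, 178 and 157 FPKM in the pre-matured ones. Its groups are far apart, and its log2 fold change of -1.40 ± 0.20 (SE; limma adjusted p = 0.00215) was the lowest of the complex. Cct8 stood at 48.6, 43.8 and 45.4 FPKM in the matured group and at 137, 139 and 89.7 FPKM in the pre-matured libraries (log2 fold change -1.36 ± 0.22, limma adjusted p = 0.00319). Here pre-matured 3 was the lowest of its group, yet above each matured library. Cct6a was at 29.9, 31.2 and 31.4 FPKM in the matured group and 77.8, 72.0 and 65.8 FPKM in the pre-matured libraries (log2 fold change -1.19 ± 0.17, limma adjusted p = 0.00234). Its matured libraries differed by less than 2 FPKM.

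The other 3 subunits that fell did so by less. Cct2 averaged 39.4 ± 0.958 FPKM in the matured group and 72.6 ± 6.76 FPKM in the pre-matured libraries (SD, n = 3 each; limma adjusted p = 0.00753). Cct5 averaged 96.6 ± 16.9 FPKM in the matured group and 184 ± 30.5 FPKM in the pre-matured libraries (SD, n = 3 each; limma adjusted p = 0.0127), and cct3 59.2 ± 9.88 and 107 ± 19.4 FPKM (limma adjusted p = 0.0184). Under TPM these 3 were not past the threshold (limma adjusted p = 0.0599, 0.0559 and 0.0896), nor was cct3 with totals that leave out genes above 1% (limma adjusted p = 0.0781). Without matured 1 neither cct5 nor cct3 passed (limma adjusted p = 0.0510 and 0.0700), and cct3 was also lost without matured 2 or pre-matured 1.

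Tcp1, the alpha subunit, and cct7 did not pass (limma adjusted p = 0.113 and 0.0715). Tcp1 was at 105, 76.0 and 92.9 FPKM in the matured group and 129, 135 and 109 FPKM in the pre-matured libraries, with groups that just part. Cct7 was at 41.7, 45.3 and 36.1 FPKM in the matured group and 75.1, 88.1 and 45.3 FPKM in the pre-matured libraries, where pre-matured 3 lies level with matured 2. With voom on rebuilt reads all 8 subunits were lower, tcp1 at an adjusted p of 0.0409 and cct7 at 0.0274.

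Fold changes differed among the subunits, which the complex holds in equal number. A ratio of 2 genes within a library is free of any scaling between libraries. The ratio of cct4 to tcp1 FPKM was 0.662, 0.830 and 0.805 in matured libraries, against 1.71, 1.32 and 1.44 in pre-matured ones. Cct4 thus lay below tcp1 in matured libraries and above it in pre-matured ones. This pair, and each pair whose ratio is given further on, was chosen after its values were seen. Within a library the highest subunit stood 2.93 to 3.68 times above the lowest in matured pituitaries and 2.82 to 3.47 times in pre-matured ones. The lowest was cct6a in the 3 matured libraries and in pre-matured 2, and cct7 in pre-matured 1 and 3.

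**Figure D3:**
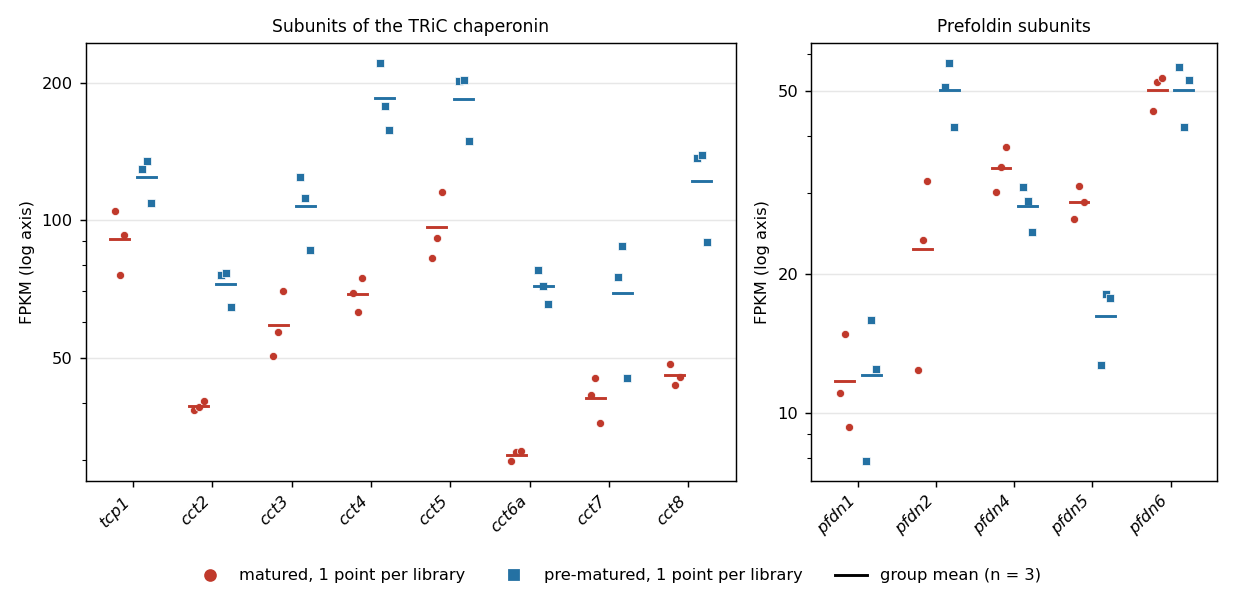
FPKM (log axis) of the 8 TRiC subunit genes and the 5 prefoldin genes in the 3 matured (red circles) and 3 pre-matured (blue squares) libraries, with group means as bars. Cct4, cct6a and cct8 show wide gaps between the groups, cct7 of pre-matured 3 lies at 45.3 FPKM beside the matured libraries, and pfdn2 and pfdn5 part in opposite directions.

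Prefoldin, which carries unfolded actin and tubulin to TRiC, had 1 of 5 genes higher and 1 lower. Among all genes tested, 23.4% were higher and 10% lower. Pfdn5 was at 26.3, 31.2 and 28.7 FPKM in the matured group and 12.7, 18.2 and 17.8 FPKM in the pre-matured libraries (log2 fold change 0.80 ± 0.21 SE, limma adjusted p = 0.0198). Pfdn2 was at 12.4, 23.7 and 31.9 FPKM in the matured group and 51.1, 57.6 and 41.7 FPKM in the pre-matured libraries (log2 fold change -1.19 ± 0.33 SE, limma adjusted p = 0.0234). Neither pair of groups overlaps, and the matured libraries spread widely for pfdn2. The ratio of pfdn5 to pfdn2 was 2.13, 1.31 and 0.897 in matured libraries, against 0.249, 0.315 and 0.426 in pre-matured ones. Pfdn2 lost its call without matured 1, pre-matured 1 or pre-matured 2 (highest limma adjusted p 0.0652), under TPM (limma adjusted p = 0.0617), with totals that leave out genes above 1% (0.0546) and with no filter (0.0502). Pfdn5 lost its call without matured 2 or matured 3 (highest limma adjusted p 0.0675) and with voom (adjusted p = 0.0601). Pfdn6, the most abundant, averaged 50.3 ± 4.39 FPKM in the matured group and 50.3 ± 7.64 FPKM in the pre-matured libraries (SD, n = 3 each; limma adjusted p = 0.980). Pfdn4 was at 30.2, 34.1 and 37.8 FPKM in the matured group and 31.0, 28.8 and 24.7 FPKM in the pre-matured libraries, and neither it nor pfdn1 was past the test (limma adjusted p = 0.311 and 0.984). With 1 of the 5 other scalings pfdn4 passed (limma adjusted p = 0.0378).

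Among genes that work with TRiC and prefoldin but carry other symbols, 4 of 11 tested were higher and 1 lower. The shares over all genes were 23.4% and 10%. Vbp1, which encodes the remaining prefoldin subunit, averaged 14.6 ± 0.435 FPKM in the matured group and 31.2 ± 5.57 FPKM in the pre-matured libraries (SD, n = 3 each; limma adjusted p = 0.00607). Pdrg1 and uxt, which belong to a prefoldin-like complex, moved the other way: pdrg1 averaged 34.4 ± 3.61 FPKM in the matured group and 11.9 ± 2.46 FPKM in the pre-matured libraries (limma adjusted p = 0.00246), and uxt 23.1 ± 3.79 and 11.8 ± 3.65 FPKM (limma adjusted p = 0.0266). Tbcb and tbcc, cofactors of tubulin folding downstream of TRiC, were also higher, at limma adjusted p of 0.0397 and 0.0365. The higher genes numbered 1 without matured 1, matured 2 or pre-matured 2 and 2 without matured 3. They numbered 1 with no filter, median-ratio scaling or voom, 2 with quantile normalization, and 6 under TPM.

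Hspa8 rose and hspa4a fell. Of the 9 members of the HSP70 and HSP110 families tested, 1 rose, 3 fell and 5 did not pass, where 23.4% of all genes were higher and 10% lower. Hspa8, the constitutive cytosolic HSP70, was at 63.8, 68.3 and 70.9 FPKM in the matured group and 24.6, 29.2 and 43.9 FPKM in the pre-matured libraries (log2 fold change 1.07 ± 0.24 SE, limma adjusted p = 0.0104). Matured libraries lie close together and above all pre-matured ones, of which pre-matured 3 is the highest. Hspa4a, an HSP110-type exchange factor for HSP70, was at 20.0, 19.4 and 22.1 FPKM in the matured group and 43.8, 38.4 and 46.1 FPKM in the pre-matured libraries (log2 fold change -1.03 ± 0.18 SE, limma adjusted p = 0.00445). Its groups are tight and apart. Within a library the ratio of hspa8 to hspa4a was 3.19, 3.53 and 3.22 in matured pituitaries, against 0.563, 0.759 and 0.954 in pre-matured ones. Both calls held in each scaling and with any 1 library left out.

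Hspa13, an HSP70 of the secretory pathway, was at 10.8, 8.51 and 8.29 FPKM in the matured group and 26.9, 14.4 and 14.6 FPKM in the pre-matured libraries (log2 fold change -0.89 ± 0.28 SE, limma adjusted p = 0.0379). The groups are apart, with pre-matured 1 well above the others. Its call was lost under TPM, with totals that leave out genes above 1% and with no filter (limma adjusted p = 0.117, 0.114 and 0.0677), and without any of matured 1, 2 and 3 or pre-matured 1 (highest limma adjusted p 0.106).

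Hspa12b, a distant HSP70 relative known from endothelial cells in mammals, was at 0.628, 1.18 and 0.739 FPKM in the matured group and 4.39, 5.38 and 10.7 FPKM in the pre-matured libraries. These values rest on 36 to 83 reads a library in the matured and 303 to 694 in the pre-matured group (log2 fold change -2.01 ± 0.34 SE, limma adjusted p = 0.00376). Every pre-matured library lies above every matured one. Of the matured libraries only matured 2 reached 1 FPKM, so hspa12b entered the test through the group where it is high. Of endothelial markers, 2 of 11 tested were higher and 0 lower, where 23.4% and 10% of all genes were. With quantile normalization or voom 1 was higher and 1 lower, and with median-ratio scaling 2 were higher and 1 lower. The counts were 3 and 0 under TPM and with totals that leave out genes above 1%. Their summed level was 51.9 to 78.0 FPKM in the matured group and 25.5 to 50.1 FPKM in the pre-matured libraries. None of the 11 is listed at 0 in all libraries, and cdh5 and kdrl were among those that did not pass (limma adjusted p = 0.371 and 0.532). The part of endothelial cells in the hspa12b result was not tested.

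The stress-inducible HSP70 gene hspa1b did not separate the groups. It was at 0.760, 41.6 and 9.60 FPKM in the matured libraries, against 3.49, 4.69 and 2.31 FPKM in the pre-matured ones (log2 fold change 1.08 ± 1.02 SE, limma adjusted p = 0.449). The matured libraries hold both its lowest and its highest value, from 31 reads in matured 1 to 2078 in matured 2. Without matured 2 the log2 fold change was -0.02 (limma adjusted p = 0.986), and without matured 1 it was 2.28 (limma adjusted p = 0.0330). Hsph1, the inducible HSP110, was at 6.14, 12.4 and 10.7 FPKM in the matured group and 2.42, 7.77 and 3.72 FPKM in the pre-matured libraries (limma adjusted p = 0.0797). Its highest values stood in matured 2 and pre-matured 2, and the groups overlap. Hsph1 passed with 2 of the 5 other scalings (lowest limma adjusted p 0.0281) and with 1 of the 6 libraries left out (0.0243). The remaining HSP70 members, hspa9 of the mitochondrion, hspa12a and hspa14, had log2 fold changes between -0.36 and 0.13 and did not pass (limma adjusted p from 0.327 to 0.719). Hspd1, the mitochondrial HSP60, was at 4.83, 6.17 and 5.60 FPKM in the matured group and 7.35, 7.67 and 5.36 FPKM in the pre-matured ones and did not pass either (limma adjusted p = 0.444).

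Hsp90ab1, the constitutive cytosolic HSP90, was the most abundant of all members. It was at 587, 549.9 and 686 FPKM in the matured libraries, against 1257, 991 and 769.9 FPKM in the pre-matured ones (log2 fold change -0.70 ± 0.22 SE, limma adjusted p = 0.0370). The groups part narrowly, and the pre-matured libraries spread more. The call held without pre-matured 3 and with median-ratio scaling and voom, and was lost without any other library, under TPM, with totals that leave out genes above 1%, with quantile normalization and with no filter (highest limma adjusted p 0.575). Its share of the FPKM total was 0.112%, 0.110% and 0.126% in matured libraries and 0.176%, 0.160% and 0.120% in pre-matured ones, where the groups overlap.

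The HSP90 co-chaperones within the pattern were not past the test. Ptges3a (p23, which stabilises the closed form of HSP90) was at 68.4, 80.8 and 85.8 FPKM in the matured group and 39.9, 51.2 and 65.3 FPKM in the pre-matured libraries (limma adjusted p = 0.0696). Stip1 (HOP, which links HSP70 to HSP90) was at 16.7, 16.1 and 15.2 FPKM in the matured group and 18.8, 23.3 and 31.3 FPKM in the pre-matured libraries (limma adjusted p = 0.0879). Their values lie on opposite sides with groups that do not overlap. Both had an unadjusted limma p under 0.05. Ptges3a passed under TPM (limma adjusted p = 0.0195), with totals that leave out genes above 1% and without pre-matured 3, and stip1 without pre-matured 1 and with 3 of the 5 other scalings (lowest limma adjusted p 0.0178).

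Of other partners of HSP90 and HSP70, 2 of 33 tested were higher and 6 lower, beside 23.4% and 10% of all genes. Chordc1a, an HSP90-binding protein, averaged 25.2 ± 3.44 FPKM in the matured group and 8.79 ± 2.11 FPKM in the pre-matured libraries (SD, n = 3 each; limma adjusted p = 0.00317). Grpel2, a nucleotide exchange factor of mitochondrial HSP70, averaged 5.91 ± 1.23 and 25.7 ± 9.94 FPKM (limma adjusted p = 0.00279), and ttc1 12.1 ± 3.83 and 29.8 ± 5.20 FPKM (limma adjusted p = 0.00985), matured before pre-matured in both. The others were fnip2, which was higher, and sugt1, ruvbl1, hikeshi (an importer of HSP70 into the nucleus) and st13 (the HSP70-interacting protein HIP), which were lower. Without matured 1 the lower ones numbered 2, without matured 2 or 3, or pre-matured 2 or 3, 4, and under TPM 5 were higher and 2 lower. With quantile normalization, median-ratio scaling and voom the lower ones numbered 12, 13 and 12.

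**Figure D4:**
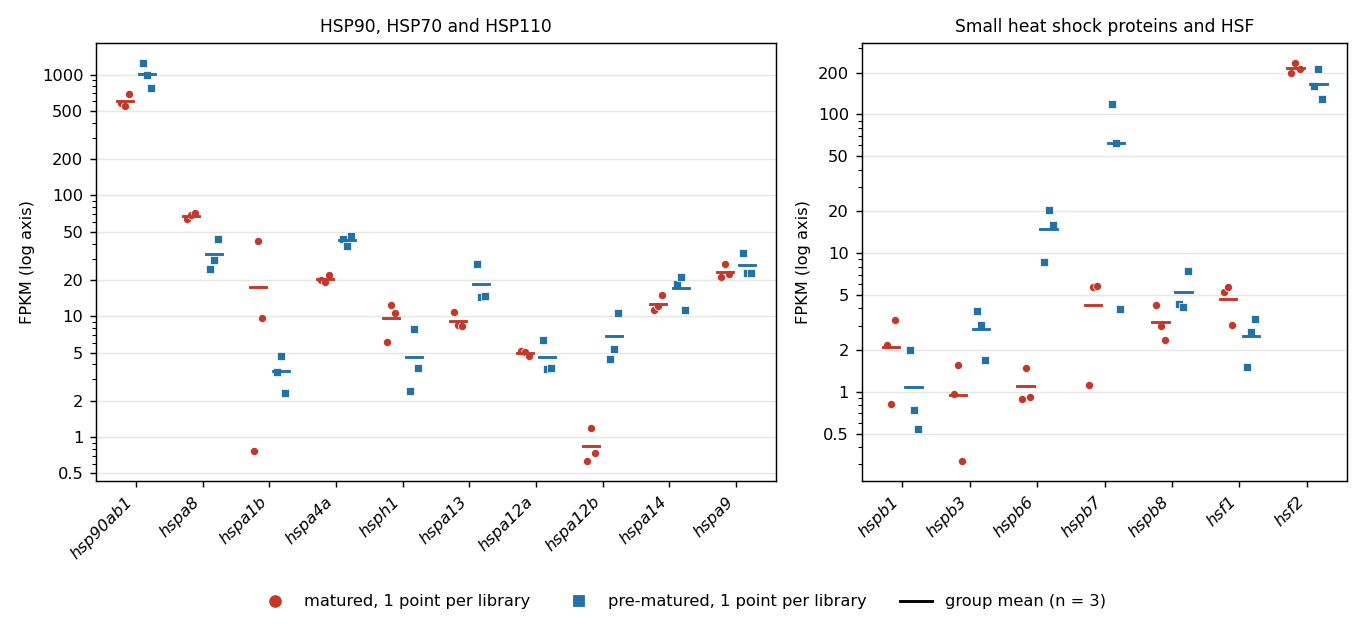
FPKM (log axis) of HSP90, HSP70 and HSP110 members (left) and of small heat shock proteins and heat shock factors (right) in matured (red circles) and pre-matured (blue squares) libraries, with group means as bars. Hspa8 is higher and hspa4a, hspa12b and hspb6 are lower in matured libraries, while hspa1b runs from 0.760 to 41.6 FPKM within the matured group and hspb7 from 3.97 to 119 FPKM within the pre-matured group.

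Small heat shock proteins keep denatured proteins from clumping without using ATP, and several are known from muscle. Of 5 tested, 1 fell and 0 rose, where 10% of all genes were lower and 23.4% higher, and 3 fell with quantile normalization. Hspb6 was at 0.882, 1.48 and 0.918 FPKM in the matured libraries, against 8.60, 20.5 and 15.8 FPKM in the pre-matured ones (log2 fold change -2.87 ± 0.33 SE, limma adjusted p = 0.00125). It was counted with 18, 37 and 19 reads in matured and 211, 485 and 367 reads in pre-matured libraries, and passed in each scaling and with any 1 library left out. Hspb7 was at 1.12, 5.70 and 5.82 FPKM in the matured group and 119, 62.3 and 3.97 FPKM in the pre-matured libraries (log2 fold change -2.87 ± 1.13 SE, limma adjusted p = 0.0892). It was high in pre-matured 1 and 2 only, and without pre-matured 3 its log2 fold change was -4.25 (limma adjusted p = 0.00553). Hspb3, with 2 to 12 reads a library in the matured and 12 to 29 in the pre-matured group, had a limma adjusted p of 0.0541. It passed without matured 2 or pre-matured 3 and with quantile normalization and median-ratio scaling (lowest limma adjusted p 0.0170). Hspb8 (limma adjusted p = 0.173) and hspb1 (0.313) were not past the threshold. For hspb6 and hspb3 all pre-matured libraries reached 1 FPKM, but of the matured ones only matured 2 did. Hspb6 and hspb3 thus entered the test through the group where they are high.

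Markers of fibroblasts and pericytes, set beside hspb6, did not share a direction. Of 9 tested 2 were higher and 2 lower, against 23.4% and 10% of all genes, with a median log2 fold change of 0.66. Their summed level was 162 to 211 FPKM in the matured group and 478 to 495 FPKM in the pre-matured libraries. Tagln, a smooth muscle gene and most of that sum in the pre-matured group, averaged 78.7 ± 19.4 FPKM in the matured group and 409 ± 14.1 FPKM in the pre-matured libraries (SD, n = 3 each; limma adjusted p = 0.000872), and acta2 was lower too, though its groups overlap (limma adjusted p = 0.0383). Pdgfra and col5a1 were higher (limma adjusted p = 0.00725 and 0.0390), and none of the 10 listed markers is at 0 in all libraries. The part of these cells in the hspb6 result was not tested. The alpha crystallins, kin of the small heat shock proteins, were all under the filter, and their 3 genes together stood at 0.339 to 1.49 FPKM in the matured group and 0.0430 to 3.43 FPKM in the pre-matured libraries.

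Neither of the 2 heat shock factors tested passed, and neither had an unadjusted limma p under 0.05. Hsf1, the main stress-responsive factor, was at 5.28, 5.68 and 3.04 FPKM in the matured group and 1.50, 2.70 and 3.33 FPKM in the pre-matured libraries (log2 fold change 0.69 ± 0.32 SE, limma adjusted p = 0.124). Hsf2 was far more abundant, at 199.7, 236 and 211 FPKM in the matured group and 160.3, 211 and 129 FPKM in the pre-matured libraries (log2 fold change 0.39 ± 0.22 SE, limma adjusted p = 0.197). Both overlap between the groups, and matured 3 is the lowest of its group for hsf1. With totals that leave out genes above 1% both passed (limma adjusted p = 0.0465 and 0.0269), and hsf2 passed under TPM (limma adjusted p = 0.0384). Of known heat shock factor targets outside the pattern, 2 of 10 tested were higher and 3 lower, against 23.4% and 10% of all genes. The higher ones numbered 1 without matured 3, and 3 without matured 1. Atf3, a stress-induced transcription factor, averaged 0.567 ± 0.344 FPKM in the matured group and 8.51 ± 2.02 FPKM in the pre-matured libraries (SD, n = 3 each; limma adjusted p = 0.00115). Klf4 averaged 12.1 ± 3.11 and 44.1 ± 20.6 FPKM (limma adjusted p = 0.00864), again with matured first. Serpinh1a, the collagen chaperone HSP47, was at 1.39, 1.63 and 1.90 FPKM in the matured libraries, against 0.0168 FPKM in pre-matured 2 and a listed 0 in pre-matured 1 and 3 (limma adjusted p = 0.00289). Serpinh1a reached 1 FPKM in matured libraries only and atf3 in pre-matured ones only. Each thus entered the test through the group where it is high.

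DNAJ proteins, the J-domain partners of HSP70, made up 37 members, of which 34 were tested, and 5 rose and 4 fell, where 23.4% of all genes were higher and 10% lower. Under TPM 8 were higher and 1 lower, after quantile normalization or median-ratio scaling 2 were higher and 8 lower, and with voom 3 were higher and 8 lower. Without matured 1 or matured 3 the higher ones numbered 2, as without pre-matured 1, and 3 without matured 2 or pre-matured 3; without matured 3 the lower ones numbered 2. In the DNAJA and DNAJB types, which serve general folding, 2 of 8 fell and 0 rose. Dnaja2a was at 33.9, 36.5 and 32.9 FPKM in the matured group and 59.0, 81.7 and 88.2 FPKM in the pre-matured libraries (log2 fold change -1.11 ± 0.21 SE, limma adjusted p = 0.00550). Dnajb6a, of a paralog pair known for holding aggregation-prone proteins, was at 21.1, 19.5 and 16.2 FPKM in the matured group and 34.0, 37.0 and 30.9 FPKM in the pre-matured libraries (log2 fold change -0.81 ± 0.19 SE, limma adjusted p = 0.0139). Both show groups that are apart with a narrow matured range. Dnaja2a passed in each scaling, while dnajb6a was lost under TPM and with totals that leave out genes above 1% (limma adjusted p = 0.116 and 0.0852) and without matured 3 (0.0562). Dnajb14 (limma adjusted p = 0.0626) and dnaja3a (0.286) were not past the threshold, at log2 fold changes of -0.86 and -0.35. Dnajb14 passed with 3 of the 5 other scalings (lowest limma adjusted p 0.0188).

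The DNAJC type holds the specialised J proteins, and here 5 of 26 rose and 2 fell. Both shares are under those of all genes (23.4% higher and 10% lower). Dnajc5b, of the cysteine string protein family that acts in exocytosis, was at 3.20, 1.47 and 3.26 FPKM in the matured libraries while each of the 3 pre-matured libraries lists it at 0 (limma adjusted p = 0.00275). It met the filter of 1 FPKM through the matured libraries alone, where it is high, so its p-value is that of a gene selected this way. Matured libraries held 32, 18 and 33 reads of it. Set against a floor of 3 reads in each pre-matured library, its mean was at least 10.3-fold higher in matured pituitaries. Dnajc5ga, of the same family, was at 3.30, 3.08 and 2.89 FPKM in the matured group and 1.15, 1.75 and 2.43 FPKM in the pre-matured ones and did not pass (limma adjusted p = 0.126), though its groups do not overlap. It passed with 1 of the 5 other scalings (limma adjusted p = 0.0446).

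Dnajc6, auxilin, which helps HSP70 strip clathrin from vesicles, averaged 6.64 ± 1.08 FPKM in the matured group and 3.42 ± 1.05 FPKM in the pre-matured libraries (SD, n = 3 each; limma adjusted p = 0.0482). Dnajc27, a Rab-like GTPase with a J domain, was at 7.82, 10.1 and 8.60 FPKM in the matured group and 3.93, 3.67 and 4.38 FPKM in the pre-matured libraries (log2 fold change 0.97 ± 0.22 SE, limma adjusted p = 0.0112). Its groups lie well apart. Dnajc3b, a J protein of the endoplasmic reticulum, averaged 16.0 ± 3.24 and 8.57 ± 1.64 FPKM (limma adjusted p = 0.0281), matured before pre-matured, while its paralog dnajc3a was at 37.1, 16.6 and 44.2 against 23.6, 35.0 and 25.1 FPKM (limma adjusted p = 0.803). Dnajc18 was higher with a log2 fold change of 0.98 ± 0.32 (SE; limma adjusted p = 0.0465). Of these, dnajc6, dnajc18 and dnajc3b lost their calls without matured 1, matured 3, pre-matured 1 or pre-matured 3, and with quantile normalization and median-ratio scaling. Dnajc6 and dnajc18 also lost theirs without matured 2, with no filter and with a pseudocount of 0.1. With voom dnajc18 and dnajc3b lost theirs.

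Dnajc1, a J protein of the endoplasmic reticulum membrane, was at 13.3, 12.2 and 16.8 FPKM in the matured group and 26.1, 31.1 and 27.5 FPKM in the pre-matured libraries (log2 fold change -0.96 ± 0.20 SE, limma adjusted p = 0.00864). Dnajc24, which takes part in making diphthamide on an elongation factor, averaged 4.96 ± 1.01 FPKM in the matured group and 9.33 ± 1.65 FPKM in the pre-matured libraries (SD, n = 3 each; limma adjusted p = 0.0346). Only dnajc1 of this pair kept its call with any 1 library left out, and both lost it under TPM (limma adjusted p = 0.0505 for dnajc1 and 0.144 for dnajc24). The most abundant DNAJC gene was dnajc12, a helper of aromatic amino acid hydroxylases, at 66.4, 60.1 and 52.4 FPKM in the matured group and 56.3, 65.6 and 73.2 FPKM in the pre-matured libraries (limma adjusted p = 0.658). Dnajc4 just missed the threshold (log2 fold change 0.69, limma adjusted p = 0.0520) and passed with 2 of the 5 other scalings (lowest limma adjusted p 0.0139). The 19 DNAJC genes that did not pass had log2 fold changes from -0.57 to 0.69.

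BAG proteins bind HSP70 and release its ADP, and of 7 tested 1 rose and 2 fell, against 23.4% and 10% of all genes. Bag5 was at 4.81, 4.34 and 4.42 FPKM in the matured group and 1.34, 1.39 and 2.22 FPKM in the pre-matured libraries (log2 fold change 1.07 ± 0.25 SE, limma adjusted p = 0.0133). Bag4, also known as a silencer of death receptors, was at 5.12, 5.53 and 3.68 FPKM in the matured group and 11.7, 9.54 and 12.8 FPKM in the pre-matured libraries (log2 fold change -1.10 ± 0.24 SE, limma adjusted p = 0.00927). Neither overlaps between groups, and the ratio of bag5 to bag4 was 0.940, 0.785 and 1.20 in matured libraries, against 0.114, 0.145 and 0.174 in pre-matured ones. Bag6, which guides tail-anchored proteins after synthesis, was the most abundant BAG gene and averaged 13.6 ± 0.714 FPKM in the matured group and 20.6 ± 1.74 FPKM in the pre-matured libraries (SD, n = 3 each; limma adjusted p = 0.0454). Its call held without pre-matured 1 and was lost without any other library and with no filter. The call of bag6 was also lost under TPM (limma adjusted p = 0.398) and with totals that leave out genes above 1%. That of bag5 was lost without matured 1 (limma adjusted p = 0.0543) and with quantile normalization (0.0547). Bag2, an inhibitor of the ubiquitin ligase CHIP, had the largest log2 fold change among the BAG genes that did not pass (0.32, limma adjusted p = 0.473), and bag3, the stress-induced member, was at 2.04, 3.46 and 2.14 FPKM in the matured group and 2.67, 3.16 and 2.68 FPKM in the pre-matured libraries.

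**Figure D5:**
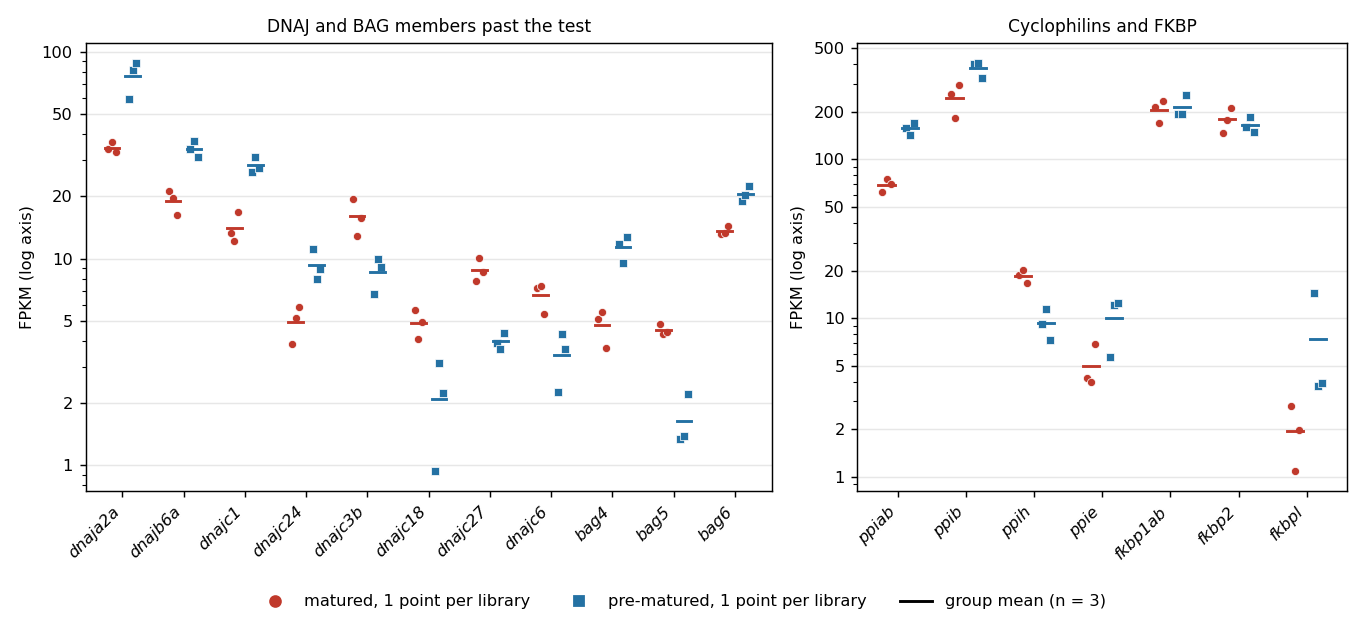
FPKM (log axis) of DNAJ and BAG members past the test other than dnajc5b (left) and of selected cyclophilins and FKBP members (right) in matured (red circles) and pre-matured (blue squares) libraries, with group means as bars. Bag5 is higher and bag4 lower in matured libraries, ppih is higher and ppiab lower, and the groups overlap for fkbp1ab and fkbp2.

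Immunophilins turn peptide bonds at proline and are the cell's targets of cyclosporin and FK506. Of 6 cyclophilins tested 1 rose and 1 fell, where 23.4% of all genes were higher and 10% lower. The lower ones numbered 2 with quantile normalization and 3 with median-ratio scaling or voom. The higher ones numbered 2 with totals that leave out genes above 1% and 0 with voom. Ppiab, a cyclophilin A gene, was at 62.4, 75.9 and 69.8 FPKM in the matured group and 158, 143 and 169 FPKM in the pre-matured libraries (log2 fold change -1.17 ± 0.18 SE, limma adjusted p = 0.00279). Ppih, the cyclophilin of the spliceosome's U4/U6 particle, was at 18.8, 20.2 and 16.6 FPKM in the matured group and 9.17, 11.5 and 7.27 FPKM in the pre-matured libraries (log2 fold change 0.94 ± 0.22 SE, limma adjusted p = 0.0141). Their groups part in opposite directions, and the ratio of ppih to ppiab was 0.302, 0.266 and 0.238 in matured libraries, against 0.0579, 0.0802 and 0.0430 in pre-matured ones. The call of ppiab held in each scaling and with any 1 library left out, and that of ppih was lost without matured 1 or matured 2 (highest limma adjusted p 0.0518) and with voom (adjusted p = 0.0555).

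Ppib, the cyclophilin of the endoplasmic reticulum and the most abundant of the family, was at 258, 183 and 295 FPKM in the matured group and 398, 405 and 324 FPKM in the pre-matured libraries and narrowly missed the threshold (limma adjusted p = 0.0578). It passed with 2 of the 5 other scalings (lowest limma adjusted p 0.0319). Ppie, another spliceosomal cyclophilin, averaged 5.04 ± 1.63 and 10.1 ± 3.80 FPKM (SD, n = 3 each; limma adjusted p = 0.0832), matured before pre-matured. Ppie passed with 3 of the 5 other scalings (lowest limma adjusted p 0.0257) and with 1 of the 6 libraries left out (0.0228). Ppid, the cyclophilin that binds HSP90, and ppig were not past the test (limma adjusted p = 0.328 and 0.929). With 1 of the 5 other scalings ppid passed (limma adjusted p = 0.0456).

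None of the 13 FKBP members tested passed by limma, where 33.4% of all genes did in either direction. Without pre-matured 1, 1 was higher, under TPM and with totals that leave out genes above 1% 1 was higher, and with quantile normalization, median-ratio scaling and voom 2 were lower. At an unadjusted limma p under 0.05 there were 2, fkbpl and fkbp7. Fkbp1ab, a gene of FKBP12, which sits on calcium release channels, was at 215, 169.9 and 233 FPKM in the matured group and 194, 194 and 253 FPKM in the pre-matured libraries (log2 fold change -0.05 ± 0.21 SE, limma adjusted p = 0.864). Its ranges cover each other. Fkbpl was at 2.80, 1.09 and 1.98 FPKM in the matured group and 14.4, 3.77 and 3.94 FPKM in the pre-matured libraries (log2 fold change -1.31 ± 0.47 SE, limma adjusted p = 0.0629), with 1 pre-matured library far above the rest. Fkbp4, the FKBP of steroid receptor complexes, was at 3.28, 7.52 and 5.64 FPKM in the matured group and 6.18, 9.99 and 8.08 FPKM in the pre-matured libraries (limma adjusted p = 0.223). Fkbp7, of the endoplasmic reticulum, was at 23.8, 23.5 and 32.4 FPKM in the matured group and 23.5, 11.6 and 13.0 FPKM in the pre-matured libraries (limma adjusted p = 0.0767), and was the member higher without pre-matured 1 (limma adjusted p = 0.0182). Among isomerases outside the pattern 1 of 12 tested was higher and 1 lower, beside 23.4% and 10% of all genes. Under TPM the counts were 5 and 1, and with quantile normalization, median-ratio scaling or voom 0 and 3. Ppil6, the higher one, averaged 12.2 ± 4.52 FPKM in the matured group and 5.33 ± 0.955 FPKM in the pre-matured libraries (SD, n = 3 each; limma adjusted p = 0.0252), and lost its call without matured 1, matured 3 or pre-matured 3.

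The pattern also matched 5 genes that are not chaperones by name. Tcp11l1, a relative of a testis gene and no part of TRiC, had the highest positive log2 fold change of the members tested on the log2(FPKM + 1) scale, at 16.8, 35.1 and 21.5 FPKM in the matured group and 3.01, 6.50 and 3.17 FPKM in the pre-matured libraries (log2 fold change 2.28 ± 0.34 SE, limma adjusted p = 0.00262). Matured 2 and pre-matured 2 were the highest of their groups, and the groups are far apart. Its paralog tcp11l2 was at 108, 90.2 and 67.3 FPKM in the matured group and 37.2, 84.9 and 65.3 FPKM in the pre-matured ones and did not pass (limma adjusted p = 0.213). Hspbp1, an exchange factor of HSP70, hspbap1 and hsf2bp were not past the test. With 2 of the 5 other scalings hspbp1 passed (lowest limma adjusted p 0.0349).

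Among the 10 members under the filter, hspb2, hsf5, dnajb4 and ptges3l are listed at 0 in all libraries. Fkbp8 stood at 0.927, 1.30 and 1.02 FPKM in the matured group and 0.646, 0.688 and 0.475 FPKM in the pre-matured libraries, and dnajb5 at 0.248, 0.843 and 0.244 and at 0.961, 1.21 and 1.34 FPKM, matured before pre-matured. Dnajb6b was at 0 in matured libraries, against 0.608, 0.0315 and 0.0322 FPKM in the pre-matured ones. Hspb9, hsf4 and fkbp6 had at most 17 reads in any library. A listed 0 is not taken as absence.

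Genes of neighbouring stress pathways are given beside these results. Each count below from FPKM as deposited with all libraries stands against 23.4% of all genes higher and 10% lower. Under TPM 5818 of all 17887 genes tested were higher and 978 lower. With 1 library left out 2697 to 3910 were higher and 1052 to 1661 lower. Counts of all genes under the other scalings are given above. Of chaperones and stress genes of the endoplasmic reticulum, 1 of 14 tested was higher and 1 lower. The higher count was 0 without any 1 library other than pre-matured 3, and 0 with median-ratio scaling, voom or no filter. It was 2 with quantile normalization, 3 under TPM and 4 with totals that leave out genes above 1%. P4hb, a protein disulfide isomerase, averaged 132 ± 44.7 FPKM in the matured group and 67.2 ± 19.3 FPKM in the pre-matured libraries (SD, n = 3 each; limma adjusted p = 0.0382), and sil1, an exchange factor for the HSP70 of that compartment, 21.6 ± 3.02 and 61.4 ± 12.8 FPKM (limma adjusted p = 0.00285). Of glucocorticoid response genes and receptors 6 of 14 were higher and 3 lower. Sgk1 averaged 4.79 ± 2.15 FPKM in the matured group and 27.2 ± 1.75 FPKM in the pre-matured libraries (limma adjusted p = 0.00149), and tsc22d3 8.32 ± 1.84 and 1.75 ± 0.664 FPKM (limma adjusted p = 0.00294), so that these targets moved in opposite directions. Fkbp5, the glucocorticoid-induced immunophilin that the pattern leaves out, was at 25.8, 1.65 and 14.9 FPKM in the matured group and 0.0737, 0.0764 and 0.328 FPKM in the pre-matured libraries (limma adjusted p = 0.0187), and was named after its values were seen. Zbtb16b was at 1.50, 1.83 and 2.19 FPKM in the matured libraries, against 0.164 FPKM in pre-matured 1 and a listed 0 in pre-matured 2 and 3 (limma adjusted p = 0.00313). Fkbp5 and zbtb16b reached 1 FPKM in matured libraries only, so both entered the test through the group where they are high. Immediate early genes, which respond to signals and to handling, had 2 of 11 tested higher and 4 lower, and 2 lower without matured 1, without matured 3 or under TPM. Among them were fosl1a at 1.14 ± 0.106 FPKM in the matured group and 30.5 ± 5.66 FPKM in the pre-matured libraries, and fosb at 25.1 ± 16.1 and 1.89 ± 2.26 FPKM (SD, n = 3 each; limma adjusted p = 0.000284 and 0.0141). Their summed level was 1391 to 3331 FPKM in the matured group and 561 to 1663 FPKM in the pre-matured libraries, most of it nr4a1, nr4a3 and jun. Their part in the chaperone results was not tested.

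Correlations of log2 values over all tested genes ran from 0.920 to 0.947 within groups and from 0.780 to 0.825 across them. Hormone cell markers stood at 27092 to 69725 FPKM in sum in matured and 5286 to 6261 FPKM in the pre-matured libraries, 3 of 10 tested being higher and 1 lower, with prl2 listed at 0. For this and the following counts, the shares over all genes tested were 23.4% higher and 10% lower. Of markers of other cells, 1 of 2 red blood cell genes was lower, 1 of 7 white blood cell, 1 of 7 glial and 1 of 6 neuronal genes were higher, and glula was listed at 0. Summed, they gave 10.9 to 15.5, 587 to 719.6, 443 to 451 and 270.3 to 465 FPKM in the matured libraries, against 20.5 to 90.8, 542 to 1010, 361 to 514 and 189.7 to 264 FPKM in the pre-matured ones. Their part in the results above was not tested.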

How the data were processed

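The deposited table gives 1 FPKM value per gene and library, made by the authors; the unit was read from the values, since the file header gives only sample titles, and it could equally be RPKM. RNA was extracted with TRIzol and libraries made with an NEBNext Ultra II kit, per the labels' protocols, and the submitters' processing notes name CASAVA 1.8. No aligner, counter, strand setting, build or annotation is given in the sources used here, so reads of near-identical paralogs may be shared.

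Read numbers could be rebuilt as whole numbers for 25782 of 25782 genes above 0 in at least 2 libraries (relative tolerance 1e-10), as the smallest whole numbers that fit; they cover 99.4% to 99.6% of the depth. The floor of 3 reads per library covers counting error only. Values after ± are the SE of the limma fit or the SD among the libraries of a group.

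The labels' age field gave the groups; replicate numbers were given in order of accession and do not pair libraries. A gene was tested where 3 or more libraries reached 1 FPKM, with limma 3.58.1 (R 4.3.3, trend and robust settings) applied to log2(FPKM + 1), adjusted over all of them; fold changes of weakly expressed genes are understated. The fit was tested on simulated data, where it missed nearly all of the smallest changes put in. The simulation used 1 setting of spread for every gene, whereas the spread among these libraries differs between genes. How often the fit misses changes in these data was therefore not measured. Alternatives kept the same genes unless the filter was the alternative. Plots were drawn with matplotlib 3.10.9 and tables made with pandas 2.3.3 and numpy 2.4.6 under Python 3.11.15.

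Members, classes, lists and the rule for named genes were chosen with earlier results of these data known. Named were, per class, up to 5 called members with the smallest p, the most abundant, the uncalled member with the largest change, and all tested members of the HSP and HSF classes; further members were named after their values were seen. Lists took up to 3 called genes with the smallest p, and further list genes were named after their values were seen. A gene of the list of other isomerases is not reported here. Lists covered HSP90 and HSP70 partners, TRiC and prefoldin partners, other isomerases, alpha crystallins, stress genes of the endoplasmic reticulum, heat shock factor targets, glucocorticoid response genes, immediate early genes and 7 sets of cell markers. Protein and promoter sequences were not used here.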

Additional observations from a re-analysis of the deposited data

How the results depend on the processing

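No paired analysis was possible because the replicate numbers follow accession order and mark no shared animal or batch. With 3 libraries a group, depth limited few members: 3 tested members had under 20 reads in a library. Of the 29 members past the test, 0 changed sign under any alternative, and 15 kept their call with any 1 library left out. Those fits used the genes that passed the filter with all libraries. Among the 15 were dnajc5b, hspa12b and hspb6, which entered the test through the group where they are high.

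Of all genes, 4184 were higher and 1797 lower. A filter of 5 FPKM gave 2714 higher, an adjusted p under 0.01 gave 1928 higher and 744 lower, and a fold of at least 2 gave 1116 lower. The higher genes numbered 5818 with TPM, 6204 with totals taken without genes above 1%, 2913 after quantile normalization, 3228 under median-ratio scaling and 2937 with voom. The lower genes numbered 978 with TPM, 1041 with totals taken without genes above 1%, 2896 after quantile normalization, 2727 under median-ratio scaling and 2549 with voom. Leaving out 1 library gave 2697 to 3910 higher and 1052 to 1661 lower genes. Of the members, 10 were higher and 19 lower. The higher ones numbered 17 with TPM, 21 without genes above 1%, 6 after quantile normalization, 6 with voom, 4 with a fold of at least 2, 2 with an adjusted p under 0.01, and 6 to 11 with 1 library left out. The lower ones numbered 9 with TPM, 12 without genes above 1%, 29 after quantile normalization, 31 under median-ratio scaling, 30 with voom, 10 with a fold of at least 2, 11 with an adjusted p under 0.01, and 12 to 20 with 1 library left out. In the lists other than cell markers, pooled, 17 genes were higher and 18 lower, beside 23.4% and 10% of all genes tested. Tested in these lists were 33 HSP90 and HSP70 partners, 11 TRiC and prefoldin partners, 12 other isomerases and 0 alpha crystallins. They also held 14 endoplasmic reticulum stress genes, 10 heat shock factor targets, 14 glucocorticoid response genes and 11 immediate early genes that were tested. A gene in more than 1 list was counted once in the pooled numbers. How many different genes were tested over these lists is not given here, so the pooled counts are not read as shares. The higher ones numbered 11 with a filter of 5 FPKM, 29 with TPM, 32 without genes above 1%, 10 with median-ratio scaling, 10 with voom, 7 with an adjusted p under 0.01, and 10 to 15 with 1 library left out. The lower ones numbered 10 with TPM, 30 with median-ratio scaling, 29 with voom, 9 with an adjusted p under 0.01, and 11 to 17 with 1 library left out. The cause of these shifts was not tested.

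Named members whose log2 fold change turned its sign were not past the test before or after the turn. Without matured 2 the value of hspa1b was -0.023, against 1.08 with all libraries. With TPM and without genes above 1%, the log2 fold changes were 0.17 and 0.17 for hspa9, 0.039 and 0.040 for hspd1, 0.20 and 0.21 for dnajc12, and 0.28 and 0.28 for fkbp1ab. With quantile normalization they were -0.19 for hspa12a, -0.020 for pfdn6, -0.065 for bag2 and 0.065 for fkbp1ab; with median-ratio scaling and voom -0.079 and -0.081 for hspa12a and -0.24 and -0.25 for pfdn6. With 1 library left out, hspa1b ran from -0.023 to 2.28, hspa9 from -0.26 to 0.023, pfdn6 from -0.12 to 0.094, and fkbp1ab from -0.15 to 0.079.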
